A study of Mus musculus with 6 samples.

Results

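Long-term haematopoietic stem cells (LT-HSCs) express a set of genes first known from blood vessel endothelium, and 8 of them that face the bone marrow niche are described here: Angpt1, Tek, Tie1, Robo4, Esam, Jam3, Myct1 and Cxcr4. They were chosen by name, for their function, though with earlier results of these data known. Each matched 1 of the 55357 gene identifiers in the count table. LT-HSCs, taken as CD150+ and CD48- cells of the c-Kit+ and Sca-1+ fraction without lineage markers, had been sorted from bone marrow of young mice, 3 wild-type and 3 with a Dcaf8 knockout, and 50 cells per mouse were made into 1 RNA-seq library. The sources used here do not give the allele, the strain, or whether Dcaf8 was removed in all cells or in blood cells alone. The comparison asked which transcripts differ when Dcaf8 is lost, whose product brings substrates to a CUL4 ubiquitin ligase.

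Angiopoietin-1 is a secreted ligand that activates the receptor tyrosine kinase TIE2, the product of Tek, and TIE1 is a related receptor that binds no angiopoietin with high affinity by itself and modulates TIE2. In marrow this pathway has been reported to hold stem cells quiescent and adherent, and HSCs make Angpt1 themselves. ROBO4, ESAM, JAM-C (the product of Jam3) and CXCR4 are surface proteins through which HSCs keep contact with vessels and stroma, and MYCT1 is a small membrane protein shared by endothelial cells and HSCs.

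Tek, Tie1 and Robo4 are the members whose library-to-library pattern is taken up below, so the promoter stretches of these 3 genes are shown first. RefSeq promoter windows (GRCm38.p6) matched 5 of the 8 genes, namely Tek, Tie1, Robo4, Myct1 and Cxcr4. The 250 bases before the start annotated in RefSeq are printed 5′ to 3′ on the gene's own strand. Capitals mark matches to AGGAAG or CGGAAG, short forms of the motif of ETS factors, on either strand. Tek lies at chr4:94739039-94739288 (plus strand), Tie1 at chr4:118489850-118490099 (minus strand) and Robo4 at chr9:37401722-37401971 (plus strand). The GENCODE M21 gene models start inside the windows of Tie1 (at 118490061) and Robo4 (at 37401897), so part of these windows lies within those models. These coordinates are of another build than the mm39 named for the counts.
Tek: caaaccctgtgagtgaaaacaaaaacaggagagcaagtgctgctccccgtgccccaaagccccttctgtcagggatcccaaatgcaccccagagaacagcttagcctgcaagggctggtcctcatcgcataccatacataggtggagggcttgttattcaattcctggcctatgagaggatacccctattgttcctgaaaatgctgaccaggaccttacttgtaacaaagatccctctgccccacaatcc
Tie1: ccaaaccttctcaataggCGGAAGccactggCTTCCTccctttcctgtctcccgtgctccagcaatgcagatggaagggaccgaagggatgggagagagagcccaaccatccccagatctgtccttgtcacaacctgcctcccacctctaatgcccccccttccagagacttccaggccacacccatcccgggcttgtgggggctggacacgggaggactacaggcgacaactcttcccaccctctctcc
Robo4: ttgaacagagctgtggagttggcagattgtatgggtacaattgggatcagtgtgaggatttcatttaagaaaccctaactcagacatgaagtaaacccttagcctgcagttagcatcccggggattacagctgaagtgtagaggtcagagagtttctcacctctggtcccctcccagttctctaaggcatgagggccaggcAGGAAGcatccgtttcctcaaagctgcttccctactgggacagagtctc

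An ETS match stood 232 and 219 bases before the RefSeq start of Tie1 and 49 bases before that of Robo4, and the Tek window held 0 matches. The Robo4 ETS match lies within the GENCODE M21 gene model of Robo4. Of 32851 such windows over all genes, 39.2% held at least 1 ETS match. Of the other motifs searched on both strands, the E-box CAGCTG stood 123 bases before the start of Robo4 (found in 4271 of all 32851 windows) and the GATA form AGATAA stood 61 bases before that of Myct1. AGATAA or TGATAA was found in 16.6% of all windows. The RUNX form TGTGGT was found in 0 of the 5 windows, against 14.05% of all windows. The Cxcr4 window held 0 matches to any of the 4 motifs. None of these matches overlapped another motif, and a match describes letters only.

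The libraries held 14461864 to 22386387 counts and 15244 to 17015 detected genes, with the fewest detected genes in wild-type replicate 3. Dcaf8 itself stood at 290.5, 292.7 and 203.8 TMM-normalised CPM (counts scaled for library size and composition) in wild-type replicates 1 to 3, the order kept below, and 74.3, 38.1 and 45.2 in the knockout replicates. Its log2 fold change was -2.28 ± 0.28 (SE), which DESeq2 called (adjusted p = 1.98e-09) and edgeR did not (adjusted p = 0.739). All 13 LT-HSC markers listed (among them Slamf1, Kit, Procr, Hlf and Mecom) were counted, and summed to 3420 to 3749 CPM of the total in wild-type and 3189 to 3979 in knockout libraries. Of 12 markers of mature endothelium 5 had 0 counts in every library, namely Cdh5, Flt1, Flt4, Gpihbp1 and Ptprb. The 12 together summed to 16.1 to 37.1 CPM in wild-type and 19.6 to 26.5 in knockout libraries, less than Esam alone. Neutrophil markers summed to 6234 CPM in wild-type replicate 2 and to at most 29.4 in any other library.

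No member passed the test. Over all genes, edgeR's quasi-likelihood test, adjusted after Benjamini and Hochberg, called 0 of 14592 genes (0%), limma-voom called 0, and DESeq2 called 153 of 17779 (0.861%), of which 0 were members. Since edgeR left even Dcaf8 uncalled, a gene that misses its threshold is not shown to be equal between genotypes. At an unadjusted p under 0.05 edgeR had 849 genes (5.82%), and 1 of the 8 members, Angpt1, was among them. All 8 passed the filter on low counts. Angpt1 was lower in every knockout library than in any wild-type library, and Tek and Robo4 were higher in every knockout library. Over all genes tested, 4.43% did not overlap with knockout lower and 5.91% did not overlap with knockout higher. The median log2 fold change of the 8 was 0.13, against 0.01 over all genes tested, and 6 of the 8 had positive values, against 50.9% of all genes. Without knockout replicate 1 the median was -0.01 and 4 of the 8 were positive, and without wild-type replicate 1 the median was 0.28 and 5 were positive. With 1 small pool of cells per mouse, a lower count from fewer cells of a kind and from less RNA per cell cannot be told apart.

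**Figure D1:**
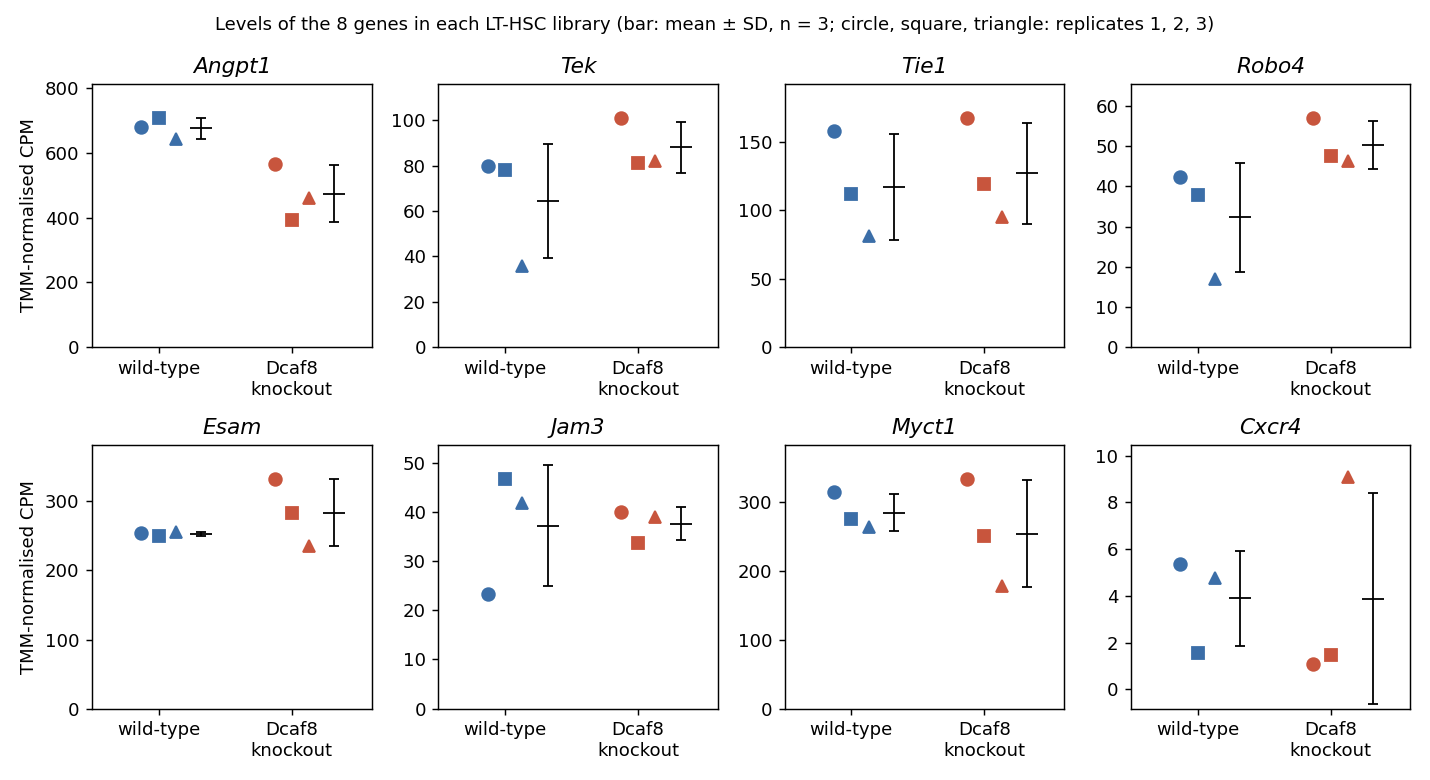
Level of each of the 8 genes in TMM-normalised CPM (vertical axis, a separate scale per gene) in the 3 wild-type (blue) and 3 Dcaf8 knockout (red) libraries, with mean and SD beside the points. Angpt1 points of the knockout lie below all wild-type points, Tek and Robo4 points of the knockout lie above them, and the other 5 genes overlap between genotypes. The lower end of the knockout SD bar of Cxcr4 lies below 0.

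Angpt1, the ligand, was the most abundant of the 8 in CPM in every library. It stood at 678, 707 and 643 TMM-normalised CPM in wild-type and at 566, 393 and 461 in the knockout replicates. The lowest wild-type library thus lay above the highest knockout library, which was replicate 1. The means were 676 ± 32.3 and 473 ± 87.4 CPM (SD, n = 3 per group), so that the knockout mean was 70.0% of the wild-type mean. This was a log2 fold change of -0.51 ± 0.14 (SE; 95% interval -0.85 to -0.17), and its p was the 163rd smallest of 14592 (edgeR adjusted p = 0.739, unadjusted 0.00884). DESeq2 gave -0.52 (adjusted p = 0.105). An exact permutation test over the 20 assignments of libraries to genotypes gave p = 0.1, two-sided, which is the smallest possible with 3 mice per group (0.275 after adjustment over 11 such tests). Leaving out each library in turn moved the log2 fold change between -0.66 and -0.39.

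An antisense gene, Gm17473, has exons over the start of Angpt1 on the opposite strand, and no source used here says whether the counting used strand, so reads of that overlap cannot be assigned to either gene. Gm17473 stood at 123, 140 and 112 CPM in wild-type and at 114, 59.1 and 62.0 in the knockout replicates. Its groups overlapped, through knockout replicate 1, which was also the knockout library with the most Angpt1. The log2 fold change of Gm17473 was -0.65 ± 0.29 (edgeR adjusted p = 0.866).

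The other angiopoietins were barely counted. Angpt2, which encodes a context-dependent TIE2 antagonist, had 3 counts in wild-type replicate 3 and 0 elsewhere, and Angpt4 had 0 counts in all 6 libraries. A count of 0 allows up to 0.134 to 0.207 CPM at these depths (a limit of 3 counts, counting error only). Ptprb, the phosphatase that dampens TIE2 in vessels, had 0 counts, and Svep1, which encodes a large extracellular protein that binds TIE1, had 1 count in all. Markers of marrow stroma, which also makes Angpt1, summed to 0.150 to 5.51 CPM in wild-type and 2.84 to 20.01 in knockout libraries, with 5 of 10 at 0 counts (Lepr, Cxcl12, Pdgfra, Col3a1 and Foxc1).

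Tek, the angiopoietin receptor, stood at 79.6, 78.0 and 35.6 TMM-normalised CPM in wild-type and at 101, 81.2 and 82.0 in the knockout replicates. The groups did not overlap, but wild-type replicates 1 and 2 lay just under knockout replicates 2 and 3, and most of the difference in means came with the low value of wild-type replicate 3. The means were 64.4 ± 24.9 and 88.1 ± 11.2 CPM (SD, n = 3 per group). This gave a log2 fold change of 0.46 ± 0.32 (SE; 95% interval -0.29 to 1.22; edgeR adjusted p = 0.936; exact permutation p = 0.1). It was 0.17 without wild-type replicate 3.

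Tie1, the co-receptor, stood at 158, 112 and 81.1 CPM in wild-type and at 167, 119 and 95.1 in the knockout replicates. The 2 ranges covered nearly the same span. The log2 fold change of 0.14 ± 0.31 (95% interval -0.59 to 0.86; edgeR adjusted p = 0.986) turned to -0.07 without wild-type replicate 3 and to -0.14 without knockout replicate 1.

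Ratios within a library do not depend on its scaling, and levels of different genes were compared per kilobase (kb) of exon. Per kb, the Angpt1 level was 7.71, 8.21 and 16.3 times the Tek level in wild-type and 5.08, 4.38 and 5.09 times in the knockout replicates. Every knockout library had less ligand transcript per receptor transcript than every wild-type library. The separate groups of Angpt1 and of Tek given above had already fixed this, so it is no further result. The knockout values lay close together. The mean ratio was 10.8 ± 4.84 in wild-type and 4.85 ± 0.41 in knockout (SD, n = 3 per group), a log2 difference of -1.06. The exact permutation p was 0.1, two-sided, the value that this separation fixes, and 0.275 adjusted over 11 tests. Without wild-type replicate 3, whose ratio was the highest, the log2 difference was -0.72.

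The Angpt1 to Tie1 ratio stood at 4.06, 5.97 and 7.49 in wild-type and at 3.20, 3.12 and 4.58 in the knockout replicates. These ranges overlapped (log2 difference -0.66, exact permutation p = 0.2). The ratio of the 2 receptors, Tie1 to Tek, was 1.82 ± 0.41 and 1.37 ± 0.24 (SD, n = 3 per group; log2 difference -0.40, exact permutation p = 0.3), so Tie1 was the more abundant receptor transcript per kb in all 6 libraries.

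**Figure D2:**
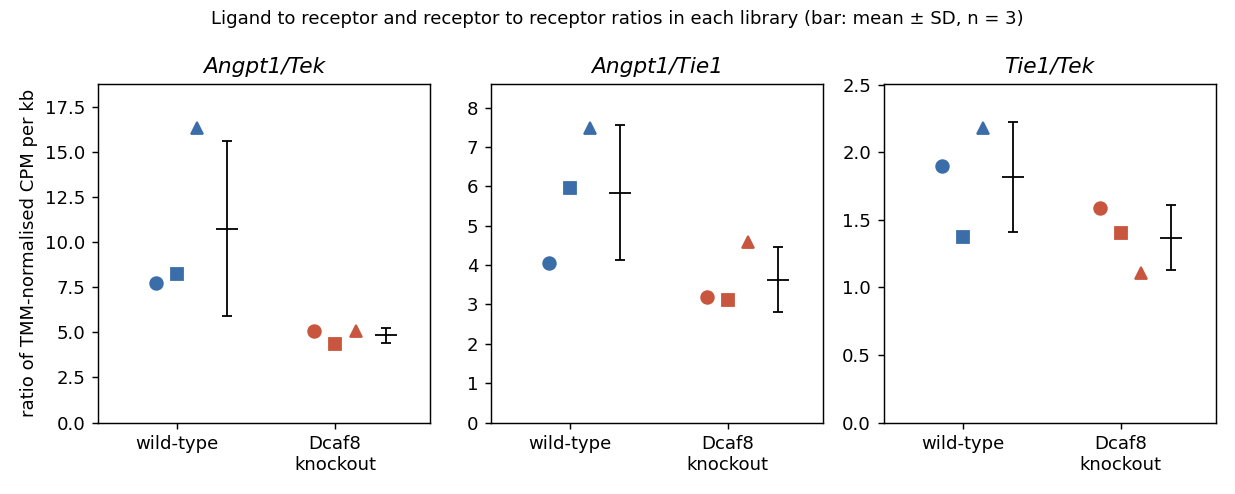
Ratio of TMM-normalised CPM per kb of exon (vertical axis) for Angpt1 to Tek, Angpt1 to Tie1 and Tie1 to Tek in the 3 wild-type (blue) and 3 Dcaf8 knockout (red) libraries, with mean and SD. The 3 knockout points for Angpt1 to Tek lie between 4.38 and 5.09, under the lowest wild-type point of 7.71, while the other 2 ratios overlap.

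Robo4, the roundabout receptor of vessels and HSCs, stood at 42.3, 37.8 and 16.9 TMM-normalised CPM in wild-type and at 57.0, 47.6 and 46.2 in the knockout replicates. Every knockout library was above every wild-type library, and wild-type replicate 3 was again the lowest. The means were 32.3 ± 13.6 and 50.3 ± 5.85 CPM (SD, n = 3 per group). The log2 fold change, the largest of the 8 in size, was 0.65 ± 0.37 (SE; 95% interval -0.21 to 1.52; edgeR adjusted p = 0.901; exact permutation p = 0.1). Without wild-type replicate 3 it was 0.34.

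Transcripts of the other Robo receptors and of Slit ligands were sparse. Robo3 stood at 2.03, 19.9 and 7.15 CPM in wild-type and at 0, 11.6 and 10.3 in the knockout replicates. Robo2, Slit3 and Unc5b, which encodes a binding partner of ROBO4, had 0 counts throughout. Robo1 had 29 counts in knockout replicate 2 alone and Slit2 had 105 in knockout replicate 1 alone, whereas Slit1 had 7 and 3 counts in knockout replicates 2 and 3.

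Robo4 and Tek ranked the libraries in nearly the same order. Over the 6 libraries their log2 CPM values had a Pearson r of 0.990 and a Spearman rho of 0.943 (exact permutation p = 0.00278 and 0.0167). Adjusted over the 28 pairs of members these p-values were 0.0778 and 0.467, so the relation did not pass. Without wild-type replicate 3 and knockout replicate 1, the libraries farthest from the median of Tek, r was 0.954, and without wild-type replicate 3 alone it was 0.899. Tek and Tie1 had r = 0.744 and rho = 0.600 (exact permutation p = 0.0361 and 0.242; 0.457 and 0.691 adjusted), and r = -0.382 without the same 2 libraries, so that relation rests on them. These r values mix the genotype difference with the spread within genotypes.

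Wild-type replicate 3, in which Tek, Tie1 and Robo4 were all lowest, also contained the fewest detected genes. Its genes with over 4000 bases of exon, the class of these 3 genes and of Angpt1, had a median log2 deviation from the mean of all libraries of -0.02. This was the lowest of the 6 libraries (-0.0033 to 0.11 in the others). Its genes under 2000 bases had a median of 0.08, the highest of the 6 (-0.12 to 0.07 in the others). On the same scale Tek, Tie1 and Robo4 deviated by -1.03, -0.54 and -1.19 in wild-type replicate 3, and Angpt1 by 0.19. The part of gene detection and of transcript length in the low values of Tek, Tie1 and Robo4 was not tested.

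**Figure D3:**
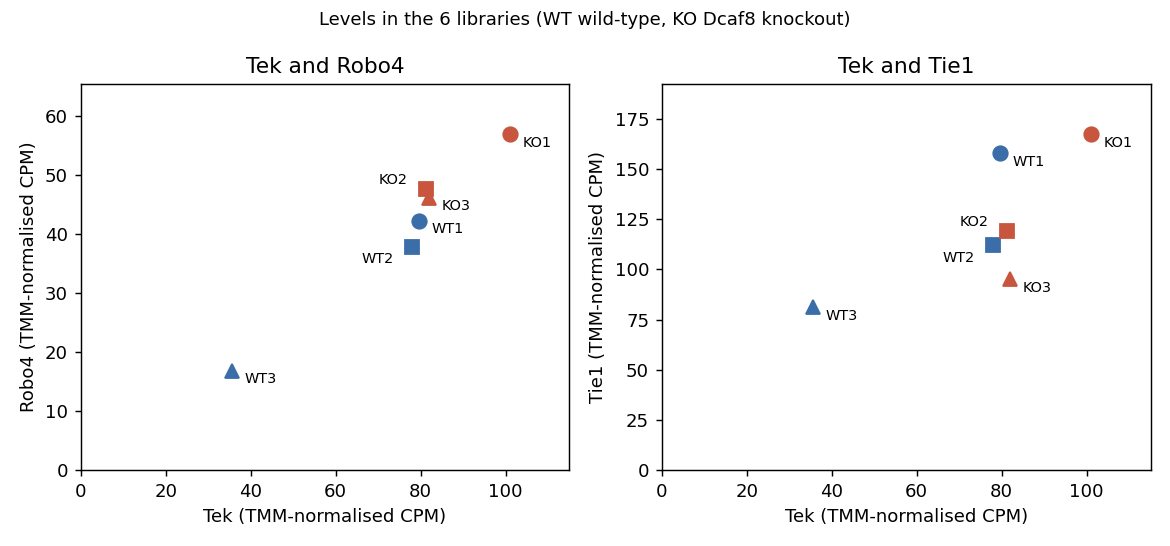
Level of Robo4 (left) and of Tie1 (right) against Tek, in TMM-normalised CPM, with 1 point per library (WT wild-type, KO Dcaf8 knockout, number the replicate). Robo4 follows Tek from 16.9 CPM in wild-type replicate 3 to 57.0 in knockout replicate 1, while Tie1 spreads from 95.1 to 158 CPM among libraries with nearly equal Tek.

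Resemblance of 2 profiles over 6 libraries is easily reached. The gene with the most similar profile had r = 0.997 for Angpt1 (Sbno1), 0.996 for Tek (Arhgap6), 0.980 for Tie1 (Washc2), 0.993 for Robo4 (Lasp1) and 0.978 for Esam (Ankrd13a). For Jam3 it was Disp1 (0.996), for Myct1 Dusp12 (0.996) and for Cxcr4 Bicd1 (0.986). The second was Nhej1 for Angpt1 (0.991), Anapc7 for Tek (0.996), Akap13 for Tie1 (0.979), Tek for Robo4 (0.990) and Creb3 for Esam (0.972). For Jam3, Myct1 and Cxcr4 it was Spata5 (0.994), Gsta4 (0.987) and Supv3l1 (0.978). The median over 7926 named genes of the highest r was 0.990, so the highest r of each member is ordinary for a best match among that many genes. It is no background for a single named pair, such as Tek and Robo4.

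Esam, a junctional adhesion protein used to mark HSCs, stood at 254, 250 and 256 TMM-normalised CPM in wild-type and at 332, 284 and 235 in the knockout replicates. The wild-type values lay close together, and the knockout values lay on both sides of them. On the log2 scale the fold change was 0.16 ± 0.16 (SE; 95% interval -0.20 to 0.53; edgeR adjusted p = 0.963), and without knockout replicate 1 it was 0.02.

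Jam3, which encodes a junctional adhesion molecule that binds JAM-B on stroma and vessels, stood at 23.3, 46.6 and 41.7 CPM in wild-type and at 40.0, 33.8 and 38.9 in the knockout replicates. The knockout range lay inside the wild-type range. The means were nearly equal, 37.2 ± 12.3 and 37.6 ± 3.33 CPM (SD, n = 3 per group), with a 95% interval of the log2 fold change from -0.78 to 0.81 (edgeR adjusted p = 1.00). Jam3 also shares an exon region with an antisense gene, Gm48796, which was counted at 11.5 to 21.4 CPM over the 6 libraries. Of the related genes, F11r, which encodes JAM-A, stood at 191 ± 37.0 and 179 ± 27.9 CPM and Jam2, which encodes JAM-B, at 16.6 ± 9.82 and 13.4 ± 8.67 (SD, n = 3 per group), both with overlapping groups.

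Myct1 stood at 314, 275 and 263 TMM-normalised CPM in wild-type and at 332, 250 and 178 in the knockout replicates. The knockout libraries spanned both the highest and the lowest value of all 6. On the log2 scale the fold change was -0.16 ± 0.23 (SE; 95% interval -0.70 to 0.37; edgeR adjusted p = 0.976). It was 0.05 without knockout replicate 3 and -0.43 without knockout replicate 1.

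Cxcr4, the receptor for the stromal chemokine CXCL12, was the least abundant of the 8, at 95, 32 and 94 counts in wild-type and 25, 21 and 201 counts in the knockout replicates. In TMM-normalised CPM these were 5.35, 1.55 and 4.77, and 1.10, 1.46 and 9.09. Knockout replicate 3 held both the highest value and most of the knockout counts. The means were 3.89 ± 2.05 and 3.88 ± 4.51 CPM (SD, n = 3 per group), with a 95% interval of the log2 fold change from -1.87 to 2.12, the widest of the 8 (edgeR adjusted p = 0.998). Its log2 fold change of 0.13 turned to -1.61 without knockout replicate 3. Cxcl12 and Ackr3, the scavenger receptor for the same ligand, had 0 counts in all 6 libraries. Mature neutrophils also express CXCR4, and the part of the neutrophil transcripts of wild-type replicate 2 in its Cxcr4 value was not tested.

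**Figure D4:**
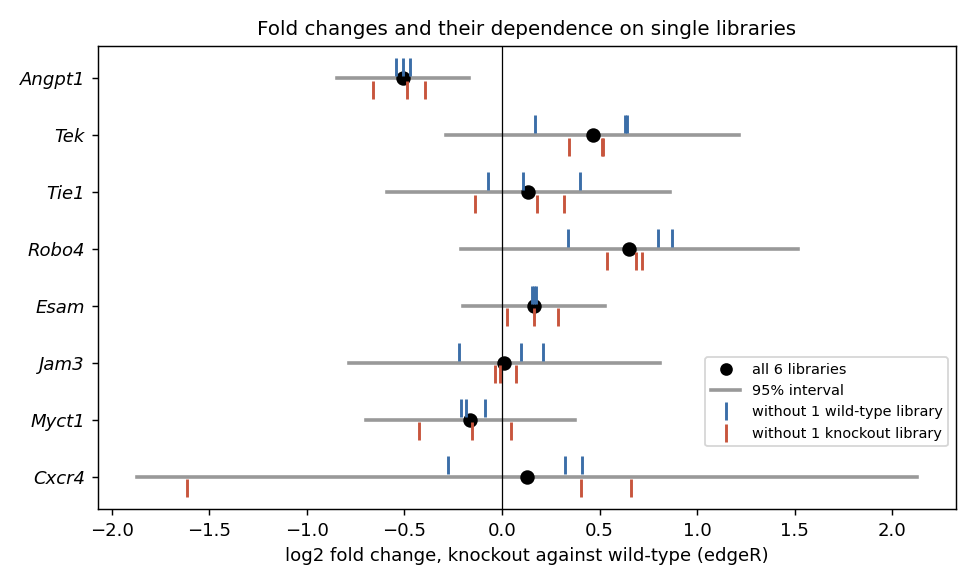
Log2 fold change of each gene, knockout against wild-type (horizontal axis), with its 95% interval (grey) and the values without each wild-type (blue ticks, above) and each knockout library (red ticks, below). Angpt1 alone has an interval on 1 side of 0, from -0.85 to -0.17, and the ticks of Tie1, Jam3, Myct1 and Cxcr4 lie on both sides of 0.

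Per kb of exon, the wild-type order was Angpt1 (130 ± 6.21 CPM per kb), Myct1 (99.8 ± 9.34), Esam (88.3 ± 1.06), Tie1 (23.8 ± 7.84), Tek (13.7 ± 5.29), Jam3 (11.6 ± 3.85), Robo4 (6.10 ± 2.56) and Cxcr4 (2.15 ± 1.13; SD, n = 3). The lowest Angpt1 library lay above the highest Myct1 library, and the lowest Myct1 above the highest Esam. Neighbours from Tie1 down to Robo4 overlapped. In knockout cells the first 3 were no longer separate, with Esam at 98.9 ± 16.9, Angpt1 at 90.9 ± 16.8 and Myct1 at 89.1 ± 27.2 CPM per kb (SD, n = 3). With the length of the longest transcript in place of all exons, Esam stood above Myct1 and Jam3 above Tek in both genotypes.

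The 5 lists of pathway genes were then read from the same fit, none tested as a set. In the angiopoietin-Tie list 19 of 25 genes could be tested and 0 were called. Of these 11 had positive and 8 negative log2 fold changes, with a median of 0.23 against 0.01 over all genes. Of the 19, 6 did not overlap with knockout higher and 1 with knockout lower, against 5.91% and 4.43% of all genes tested. The same counts are given below for the other lists. Besides Tek, the genes whose knockout libraries were all higher included Pik3r2, Akt1, Grb2 and Dok2, which encode a PI3-kinase subunit, a kinase and adaptors downstream of TIE2. Other genes of the list were negative, with overlap. Among them were Pik3r1 (-0.22), Ptpn11 (-0.44), Nck1 (-0.51), Sos1 (-0.88) and Pak1 (-0.22). Grb2, Dok2 and these negative genes were singled out after their values were seen. Akt1 stood at 237 ± 42.8 and 321 ± 24.5 CPM and Pik3r2 at 19.7 ± 5.39 and 45.2 ± 19.8 (SD, n = 3 per group). Neither passed edgeR's test over all genes (adjusted p = 0.837 for Akt1 and 0.816 for Pik3r2).

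In the Slit-Robo list 16 of 23 genes were tested, 7 with positive and 9 with negative values (median -0.10). Of the 16, 2 did not overlap with knockout higher and 2 with knockout lower, against 5.91% and 4.43% of all genes tested. Named here are Nck2, an adaptor gene that DESeq2 alone called (adjusted p = 4.99e-07, against 0.739 in edgeR), with 50.5 ± 5.59 and 15.8 ± 2.39 CPM, and the kinase gene Abl2 with 3.46 ± 2.51 and 13.6 ± 8.51 CPM (SD, n = 3 per group). Srgap2, a Rac GTPase-activating protein gene, stood at 3.69 ± 1.93 and 11.3 ± 7.42 CPM, with overlap. The CXCL12-CXCR4 list had 26 of 30 genes tested, 14 positive and 12 negative, and a median of 0.03. It had 1 gene that did not overlap with knockout higher and 1 with knockout lower. Its 3 genes of smallest p, the receptor kinase gene Grk2, the focal adhesion kinase gene Ptk2 and the exchange factor gene Vav1, all overlapped between genotypes, with log2 fold changes of 0.77, -0.86 and -0.30.

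In the list of junctional immunoglobulin-family adhesion genes, 12 of 18 tested had positive values (median 0.29). Of the 18, 2 did not overlap with knockout higher and 0 with knockout lower, against 5.91% and 4.43% of all genes tested. Pecam1, which encodes the endothelial and platelet adhesion molecule CD31, stood at 44.9, 55.9 and 62.3 CPM in wild-type and at 81.2, 63.0 and 93.2 in the knockout replicates. The groups did not overlap, but knockout replicate 2 lay just above the highest wild-type library. Pvr, a nectin-like receptor gene, stood at 2.32 ± 3.98 and 13.7 ± 5.40 CPM and Cd99l2, a relative of CD99, at 12.3 ± 4.26 and 27.4 ± 12.6 (SD, n = 3 per group). The edgeR adjusted p of the 3 was 0.866, 0.841 and 0.866.

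Among endothelial-type genes of HSCs, 19 of 31 tested were positive, and the median was 0.07. Of the 31, 4 did not overlap with knockout higher and 0 with knockout lower, against 5.91% and 4.43% of all genes tested. Ly6a, which encodes the Sca-1 antigen used in the sort, stood at 131, 138 and 169 CPM in wild-type and at 175, 217 and 215 in the knockout replicates (edgeR adjusted p = 0.837). Vwf, the von Willebrand factor gene that marks platelet-biased HSCs, stood at 93.2, 65.0 and 70.0 CPM in wild-type and at 110, 88.5 and 120 in the knockout replicates, with overlap. Megakaryocyte and platelet markers, a class of cells that also expresses Angpt1, Esam and Pecam1, summed to 738 to 1112 CPM in wild-type and 924 to 1429 in knockout libraries. The highest sum was in knockout replicate 3, and the part of this in the values above was not tested.

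**Figure D5:**
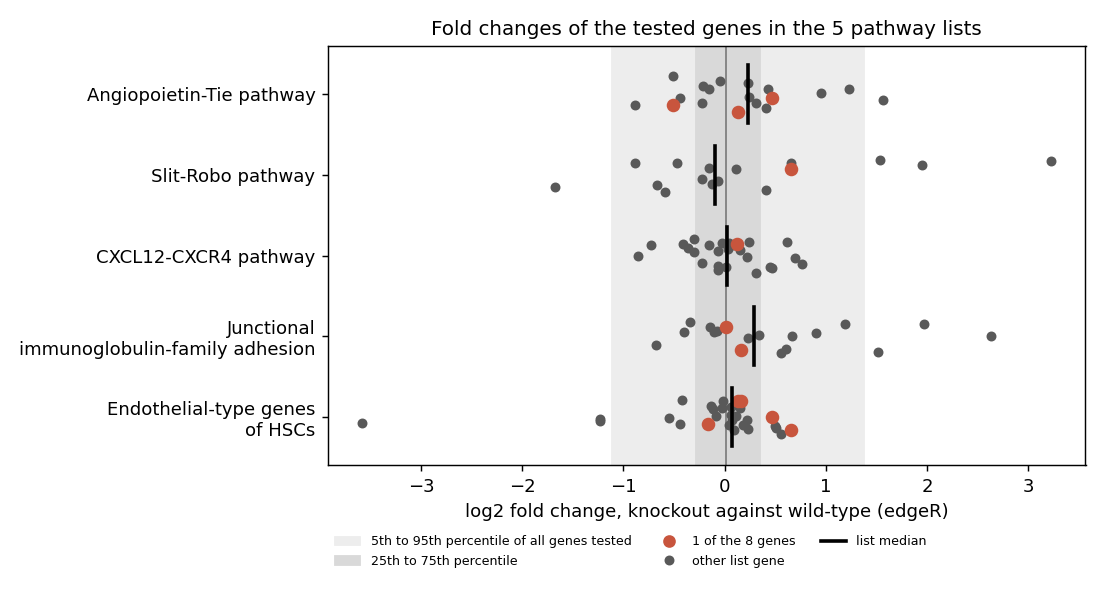
Log2 fold change, knockout against wild-type (horizontal axis), of the tested genes in 5 pathway lists, with the 8 described genes in red and the list median as a black line. Shaded bands give the spread of single genes over all 14592 tested. The list medians, from -0.10 to 0.29, lie inside the inner band of -0.28 to 0.35. A median of many genes varies less than a single gene, so this does not show that a list is ordinary.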

How the data were processed

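The authors deposited raw read counts per Ensembl gene, 1 column per library and no pooling. The submitters' processing notes name Trimmomatic 0.39, HISAT2 2.2.1, Picard 2.26.1, HTSeq 1.99.2, DESeq2 1.38.3 and build mm39, with no roles. Annotation release, strand setting and duplicate handling: not given in the sources used here. Full-length amplified cDNA was tagmented, per the labels' protocols, without molecular identifiers. Reads are therefore not independent molecules, and limits cover counting error only. Groups and replicate numbers came from sample titles, and each library is a separate mouse.

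Symbols were matched for 52081 of 55357 identifiers (94.1%). All genes were fitted with edgeR 4.0.16 under R 4.3.3: default filterByExpr (minimum count 10, total 15), TMM, robust quasi-likelihood fit (legacy off), genotype as the only term, Benjamini-Hochberg adjustment with a threshold of 0.05. Standard errors came from the F statistic. CPM are TMM-normalised, except sums of marker lists, which are CPM of the total count. Permutations of levels used log2(CPM + 0.5) and those of ratios log2 ratios, 11 tests in all. Exon lengths came from GENCODE M21 (GRCm38), used as lengths only. The correlations of member pairs used log2 CPM with a prior count of 2 and were added after the data were seen. Patterns were compared over named genes with a mean log2 CPM of at least 4.

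The members and lists (229 entries, 1 unmatched) were chosen with earlier results of these data known. Named were the members, Dcaf8, fixed partners and, per list, the 3 non-members of smallest p among those averaging 5 CPM or more, of which 1 is not reported here. The antisense genes Gm17473 and Gm48796 were added by position. The wild-type libraries held 17790290, 20881139 and 19966967 counts, and the knockout libraries 22386387, 14461864 and 22154703. The fits were tested on simulated counts. Alternatives were DESeq2 1.42.0, limma-voom (limma 3.58.1, sample weights), factors by RLE or upper quartile, a filter of 5 CPM in 3 libraries or none, the legacy fit, a replicate block, removal of mitochondrial and the 20 most abundant genes, and each library left out.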

Additional observations from a re-analysis of the deposited data

How the results depend on the processing

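The log2 fold changes of Angpt1, Tek, Robo4 and Esam kept their sign under all 15 alternatives, in ranges of -0.66 to -0.39, 0.17 to 0.64, 0.34 to 0.87 and 0.02 to 0.29. Since Angpt1, Tek and Robo4 do not overlap between genotypes, leaving out a library could hardly change their sign. The 3 ratios were recomputed under 7 alternatives, raw counts and each library left out, and kept their sign in these. Raw counts could not change the log2 differences, because scaling and length cancel in them. Leaving out a library could not reverse Angpt1 to Tek, whose groups do not overlap. No member was called under any of the 15 alternatives. DESeq2 called 153 genes in place of 0, and every other alternative called 0, including each library left out (0 to 0). The median of the members ranged from -0.01 to 0.28, and 4 to 6 of them had positive values, with 4 without knockout replicate 1. Jam3 turned to -0.00058 with upper-quartile factors. Cxcr4 turned to -0.014 with DESeq2, -0.33 with limma-voom, -0.0012 with the legacy fit and -0.0014 with the replicate block, and could not be tested with the strict filter. With libraries left out in turn, Tie1 ranged from -0.14 to 0.40, Jam3 from -0.22 to 0.21, Myct1 from -0.43 to 0.047 and Cxcr4 from -1.61 to 0.66. The cause was not tested, beyond the loss of the named library. With no filter on low counts, 11 Slit-Robo genes in place of 7 had positive values, because more genes were tested.

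The replicate number as a block also called 0 genes and gave Angpt1 -0.52, Tek 0.50 and Robo4 0.67. Tie1 was 0.13 with an SE of 0.17 under the block, against an SE of 0.31 without it. The labels do not say that equal numbers share anything, so the samples are not paired here. Deviations of same-numbered libraries correlated at 0.081, 0.0055 and 0.018 over 8437 genes, and those of unequal number at -0.058 to 0.042. Cxcr4 had the fewest counts of the members, 21 to 201 per library, and its lower values carry the larger counting error.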
